A study of Mus musculus with 18 samples.

Results

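Peroxins are the proteins that build peroxisomes, and 8 peroxin genes (Pex2, Pex5, Pex6, Pex7, Pex11a, Pex13, Pex14 and Pex19) were described across sorted cells of the mouse retina. The members were all probe sets whose annotation gave exactly 1 gene symbol and that symbol among the 8, which left 18 probe sets of 36701 on the 3 chips, for 8 genes of 15964. The genes were chosen from earlier results of this same contrast between the sorted populations, so what follows describes them. Where a member probe set is said to pass or miss the threshold, this is its place in the fit over all probe sets and no test of the chosen genes. Retinas came from FVB/N mice at postnatal day 8, all homozygous for a Tie2-GFP transgene in which the promoter of Tek (Tie2) drives green fluorescent protein. Retinas were pooled and digested with papain, and a cell sorter split them into GFP-positive cells, labelled as endothelial, and GFP-negative cells, which hold every other cell type of the retina together and served as the control. Amplified RNA was measured on Affymetrix MGU74v2 chips A, B and C in 18 arrays, 3 for each chip and population. The labels do not say that the 3 arrays came from separate animals or sorts, so errors and p-values measure the spread between arrays, which may be technical.

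Peroxisomes are single-membrane organelles that shorten very long and branched fatty acids, start the synthesis of ether lipids such as plasmalogens and break down hydrogen peroxide. Their matrix proteins are made in the cytosol, bound there by the receptors Pex5 or Pex7, taken to a docking complex of Pex13 and Pex14 in the membrane and released inside, after which the receptor is tagged with ubiquitin by a ligase that contains Pex2 and pulled out by an ATPase pair that contains Pex6. Pex19 carries membrane proteins to the organelle, and Pex11a shapes the membrane before division. Loss of peroxins in people causes the Zellweger spectrum disorders, in which retinal degeneration is common, and loss of PEX7 causes rhizomelic chondrodysplasia punctata.

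Of the 18 peroxin probe sets, 7 had lower signal in GFP-positive cells than in GFP-negative cells with an adjusted p below 0.05 (limma, Benjamini-Hochberg adjustment over all probe sets of the chip), none was higher and 11 did not pass. The lower probe sets belonged to 5 genes, Pex2, Pex7, Pex11a, Pex13 and Pex19, and GFP-negative cells read between 1.79 and 4.08 times the GFP-positive mean on them. Pex5, Pex6 and Pex14 had no probe set past the threshold. On chip A, 4 of 11 peroxin probe sets were lower, where 9.25% of all its probe sets were lower and 9.09% higher. On chip B the count was 2 of 3, against 11.3% lower and 9.6% higher among all probe sets, and on chip C it was 1 of 4, against 5.88% lower and 3.4% higher. Since the genes were picked from this contrast, nothing is read from these shares. The count of higher peroxin probe sets was also 0 at an unadjusted p under 0.05 and with robust trended limma.

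GFP-positive and GFP-negative arrays did not overlap on 8 of the 18 probe sets, 5 on chip A, 2 on chip B and 1 on chip C, all lower in GFP-positive cells. Over all probe sets this held for 37% on chip A, 42.8% on chip B and 31.8% on chip C. The median log2 difference on the log2(intensity + 16) scale, negative where GFP-positive cells are lower, was -0.18 over the 18 probe sets and 0.05 over all 36701. Intensities are linear and in the arbitrary units of the deposited tables, the offset of 16 keeps dim probe sets from giving large log ratios, and fold changes of dim probe sets are therefore understated on this scale. In these sorted populations, fewer cells of a type with a transcript and less of that transcript per cell cannot be told apart.

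**Figure D1:**
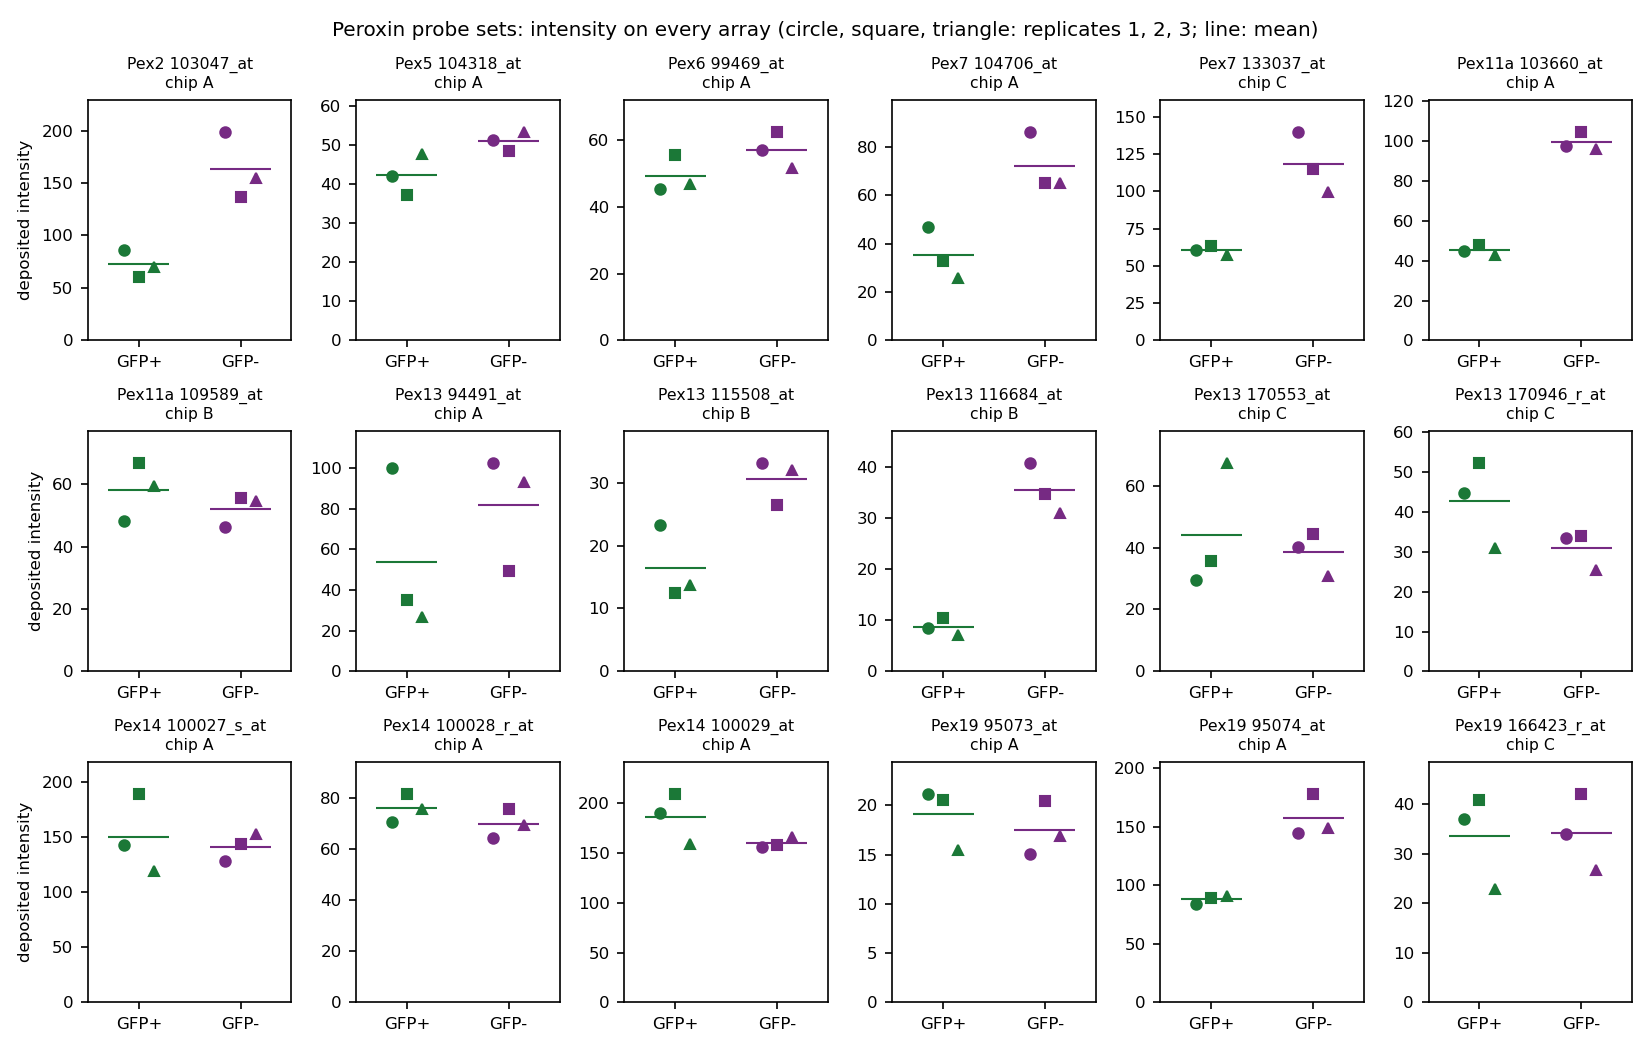
Deposited intensity (vertical axis, linear, from 0, its own scale in each panel) of the 18 peroxin probe sets on every array, with GFP-positive arrays in green, GFP-negative arrays in purple, a symbol for each replicate number and a line at the mean of 3. The 2 sets of arrays stand apart on 8 panels, among them Pex2, both Pex7 probe sets and Pex13 116684_at, and overlap on all 3 Pex14 panels.

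The sort and the arrays were checked once for all genes. Tek, whose promoter drives the transgene, read 442 ± 174 in GFP-positive and 8.23 ± 1.46 in GFP-negative cells (SD, n = 3 each), a log2 difference of 4.15 (SE 0.31, adjusted p = 0.000592, limma), and Cldn5, a tight junction protein of endothelium, differed by 6.21 (SE 0.16). Of the endothelial markers 9 of 12 rose in GFP-positive cells. The summed intensity of all 12 ranged from 12738 to 15644 there against 2087 to 3040.4 in GFP-negative cells. Kdr, Pecam1 and Egfl7 did not pass. Kdr read 2235 ± 233 in GFP-positive and 2245 ± 503 in GFP-negative cells and made up most of the GFP-negative sum. Ranges in brackets below are likewise sums over all measured markers of a list. Müller glia markers fell for 6 of 7 (727 to 1802 against 4482 to 6777), photoreceptor markers for 3 of 8 measured (393 to 645 against 719.6 to 1423), markers of bipolar, amacrine and horizontal cells for 2 of 6 (150.4 to 156 against 451 to 584) and astrocyte markers for 1 of 4 (151 to 180.02 against 372 to 819.7). For photoreceptors most of the gap between the sums was Sag, at 136 ± 117 in GFP-positive and 704 ± 320 in GFP-negative cells. For bipolar, amacrine and horizontal cells it was Pax6, at 8.18 ± 2.26 and 331 ± 84.4. For astrocytes it was Pdgfra, at 20.2 ± 3.34 and 418 ± 246. The other astrocyte markers did not pass, and Gfap was higher in GFP-positive cells without overlap, at 78.6 ± 20.55 and 56.4 ± 2.89. Of 7 ganglion cell markers 1 rose and 1 fell (263 to 337 against 298 to 351). Of 9 pericyte and smooth muscle markers none passed in limma (273 to 356 against 313 to 367, with 1 of them lower at an unadjusted p under 0.05), and of 3 measured red blood cell markers none passed (169.7 to 194 against 144 to 163, with 1 higher at an unadjusted p under 0.05). Microglia and leukocyte markers rose for 2 of 11, C1qb and Fcer1g, and the sum over all 11 was 570.1 to 1464 against 468 to 503. The highest GFP-positive sums of this list and of the Müller glia list were on replicate 3. There Csf1r read 930, against 37.3 and 41.2 on replicates 1 and 2. Glul of the Müller glia list read 986 there, against 136 and 156. Neither gene passed. No marker was at 0 on any array, and the lowest of the 67 read 6.16. The part of these cell types in the peroxin differences was not tested. Array medians ranged from 43.3 to 44.5 on chip A, 40.7 to 44.55 on chip B and 32.5 to 34.4 on chip C. GFP-positive replicate 3 stood apart on every chip, with rank correlations of 0.911 to 0.929 with the other GFP-positive arrays, where the remaining pairs within a population gave 0.96 to 0.987.

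Pex5, the receptor that reads the C-terminal targeting signal of most matrix proteins, differed little. Its single probe set, 104318_at on chip A, read 42.1, 37.2 and 47.7 on GFP-positive arrays 1, 2 and 3 and 51.2, 48.5 and 53.4 on the GFP-negative arrays. All GFP-positive values lay below all GFP-negative ones, but the gap between the nearest values was small beside the range within GFP-positive cells. The means were 42.3 ± 5.23 and 51.0 ± 2.50 (SD, n = 3 each), with a log2 difference of -0.20 (SE 0.09) that did not pass the threshold.

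Pex7, the receptor for the N-terminal targeting signal used by a few enzymes, was lower in GFP-positive cells on both of its probe sets, which lie on different chips. On chip A, 104706_at read 46.6, 32.9 and 25.7 in GFP-positive cells and 86.2, 64.9 and 65.2 in GFP-negative cells. On chip C, 133037_at read 60.8, 63.5 and 57.3 against 140.2, 115 and 99.8. Every GFP-negative array read above every GFP-positive array on both. The means on chip A were 35.1 ± 10.6 and 72.1 ± 12.2, which is 2.06 times as much signal in GFP-negative cells and a log2 difference of -0.80 (SE 0.18). The means on chip C were 60.5 ± 3.11 and 118 ± 20.4, or 1.95 times, and the log2 difference was also -0.80 (SE 0.12). The chip A probe set passed the threshold in 2 of the 6 fits that left out 1 array and lost it without GFP-positive replicate 2 or any one GFP-negative replicate, at log2 differences between -0.95 and -0.66 over the 6 fits. The chip C probe set passed in 5 of 6, missing without GFP-negative replicate 2, with differences from -0.90 to -0.69.

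Pex13, the membrane protein that docks loaded receptors through its SH3 domain, had 5 probe sets that did not behave alike. The widest difference of any peroxin probe set at an offset of 16 was on 116684_at of chip B, which read 8.42, 10.5 and 7.21 in GFP-positive cells and 40.9, 34.7 and 31.0 in GFP-negative cells. The lowest GFP-negative array stood far above the highest GFP-positive one. Their means were 8.71 ± 1.66 and 35.5 ± 5.03, a ratio of 4.08 and a log2 difference of -1.06 (SE 0.11). This probe set passed in all 6 fits with 1 array left out, but all 6 of its values lay below the median of the chip, so both populations were dim. Its log2 difference depended on the offset, at -1.92 with an offset of 1 and -0.45 with an offset of 64. With the latter offset it was no longer the widest, since Pex2 stood at -0.73, Pex11a 103660_at at -0.58, Pex7 133037_at at -0.54 and -0.46 on 104706_at, and Pex19 95074_at at -0.54.

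A second probe set of Pex13 on chip B, 115508_at, was also lower and also below the chip median on every array. It read 23.3, 12.5 and 13.7 against 33.2, 26.4 and 32.03, with means of 16.5 ± 5.91 and 30.5 ± 3.61, a ratio of 1.85 and a log2 difference of -0.53 (SE 0.15). The nearest arrays of the populations were close, and the call held in 1 of the 6 fits with 1 array left out, the one without GFP-positive replicate 1, with differences from -0.67 to -0.44 over the 6. It was also lost with an offset of 64 (a difference of -0.23) and with adjustment over all 3 chips together.

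The other 3 probe sets of Pex13 overlapped between the populations. On chip A, 94491_at read 100.03, 35.1 and 26.9 in GFP-positive cells and 102.7, 49.6 and 93.0 in GFP-negative cells. GFP-positive replicate 1 was high and GFP-negative replicate 2 low, and the log2 difference of -0.58 had the largest error of the 18 (SE 0.43), ranging from -1.01 to -0.30 as single arrays were left out. On chip C, 170553_at read 29.4, 35.6 and 67.4 against 40.1, 44.4 and 30.9, with GFP-positive replicate 3 alone above the rest. Its log2 difference of 0.10 (SE 0.24) turned to -0.16 without that array. The last, 170946_r_at on chip C, read 44.7, 52.4 and 30.9 against 33.5, 33.9 and 25.4, a log2 difference of 0.31 (SE 0.16), the highest of the 18. Without GFP-positive replicate 3 this difference was 0.46 and passed the threshold as higher. The suffix _r_at marks a probe set for which the usual rules of probe choice were relaxed. Where on the transcript each probe set lies was not used here, so the differing probe sets of Pex13 could not be assigned to transcript forms.

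Pex14, the partner of Pex13 in docking, had 3 probe sets on chip A and none passed. The first, 100029_at, read 191, 209.7 and 159 in GFP-positive cells and 156, 159 and 166 in GFP-negative cells. GFP-positive replicates 1 and 2 were above all GFP-negative arrays and replicate 3 lay among them. The means were 186 ± 25.7 and 160.2 ± 4.92 with a log2 difference of 0.19 (SE 0.11), which was 0.29 and passed as higher without GFP-positive replicate 3. On 100027_s_at, whose suffix marks probes that can match several transcripts, the values were 143, 189.6 and 119 against 128, 144 and 152, for a log2 difference of 0.06 (SE 0.17). On 100028_r_at they were 70.3, 81.5 and 75.6 against 64.4, 75.5 and 69.4, for a log2 difference of 0.10 (SE 0.08). Pex13 and Pex14, which work in 1 complex, thus had probe sets on different sides of the threshold, though no test of the difference between the genes was made.

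Pex2, a RING-finger subunit of the ubiquitin ligase that marks the receptors for recycling, was measured by 103047_at on chip A. It read 86.5, 60.9 and 70.1 in GFP-positive cells and 199, 137 and 154 in GFP-negative cells. The populations were clearly apart. The means were 72.5 ± 13.0 and 163 ± 31.97, a ratio of 2.25 and a log2 difference of -1.02 (SE 0.17). All 6 values lay above the chip median, the call held in all 6 fits with 1 array left out, and the difference ranged from -1.13 to -0.88 in them.

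Pex6, an ATPase that extracts ubiquitin-tagged receptors from the membrane, did not pass on its probe set 99469_at of chip A. It read 45.2, 55.4 and 46.9 against 56.9, 62.5 and 51.7, and GFP-positive replicate 2 lay above GFP-negative replicate 3. The means were 49.2 ± 5.45 and 57.0 ± 5.42, with a log2 difference of -0.17 (SE 0.10).

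Pex19, the cytosolic chaperone of peroxisomal membrane proteins, was lower in GFP-positive cells on 1 of its 3 probe sets. On chip A, 95074_at read 83.9, 89.2 and 90.6 in GFP-positive cells and 145, 178 and 149 in GFP-negative cells. The GFP-positive arrays were close together and well below the others. The means were 87.9 ± 3.53 and 157 ± 18.4, a ratio of 1.79 and a log2 difference of -0.73 (SE 0.09), and the call held in all 6 fits with 1 array left out. On the same chip, 95073_at read 21.2, 20.6 and 15.5 against 15.1, 20.5 and 16.9, below the chip median on every array, with a log2 difference of 0.07 (SE 0.10). On chip C, 166423_r_at read 37.0, 40.8 and 22.8 against 34.0, 42.2 and 26.7, with a log2 difference of -0.03 (SE 0.18) whose sign changed with the array left out (-0.14 to 0.14). Of the 3, 95074_at alone separated the populations.

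Pex11a, a membrane protein that elongates peroxisomes before they divide, had the smallest error of the lower probe sets. On chip A, 103660_at read 45.1, 48.0 and 42.9 in GFP-positive cells and 97.6, 105 and 95.9 in GFP-negative cells. Both populations were tight and far apart. The means were 45.3 ± 2.55 and 99.4 ± 4.70, a ratio of 2.19 and a log2 difference of -0.91 (SE 0.07), between -0.94 and -0.88 in the 6 fits with 1 array left out, all of which kept the call. Its second probe set, 109589_at on chip B, read 48.1, 67.0 and 59.6 against 46.3, 55.6 and 54.6, and did not separate the populations. The log2 difference there was 0.12 (SE 0.12). Pex11a, Pex13 and Pex19 were the 3 genes with both a lower probe set and probe sets that did not pass.

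**Figure D2:**
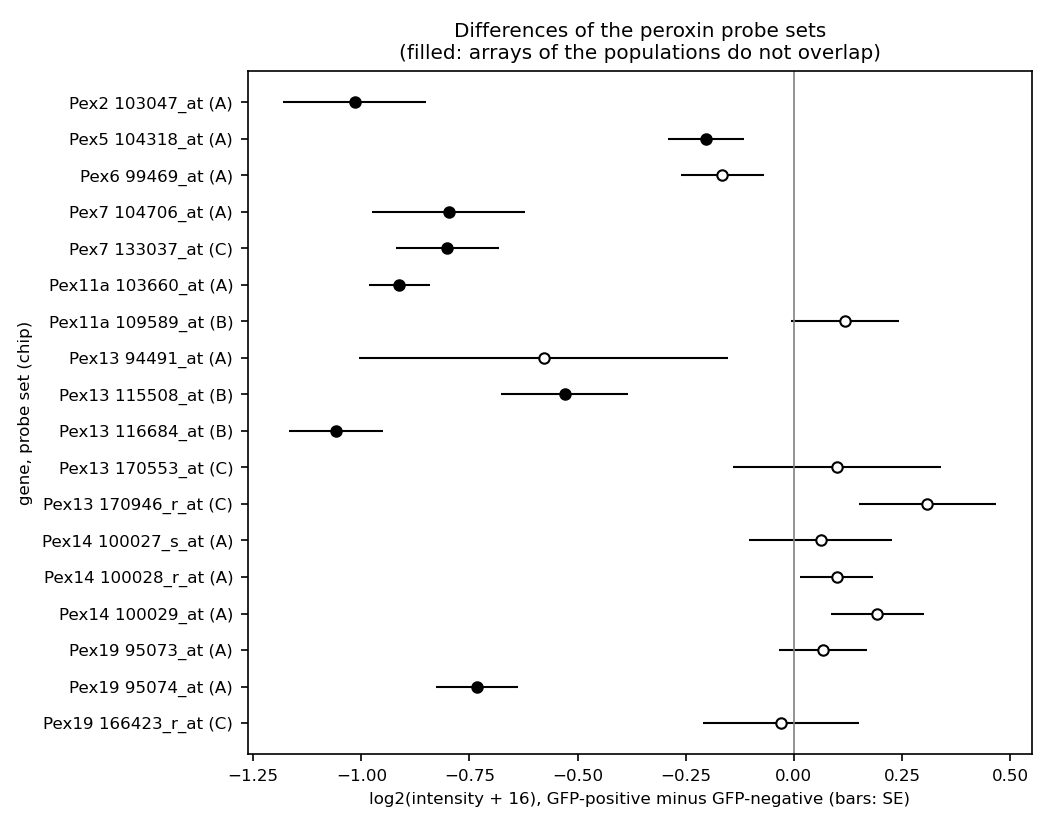
Log2 difference in log2(intensity + 16), GFP-positive minus GFP-negative (horizontal axis), for the 18 peroxin probe sets with the chip in brackets. Bars are the SE from limma, and filled points are the 8 probe sets whose arrays do not overlap, from -1.06 for Pex13 116684_at to -0.20 for Pex5.

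Promoters of 4 of these genes are shown because Pex7, Pex11a and Pex13 had lower probe sets and a window in the promoter table, and Pex14 had no lower probe set. Each line is the 250 bases before the transcription start in RefSeq (GRCm38.p6), read 5′ to 3′ on the gene's strand, which is minus for all 4. The windows are chr10:19907675-19907924, chr7:79743132-79743381, chr11:23665884-23666133 and chr4:149099844-149100093. Capitals mark matches, on either strand, to 5 motifs chosen after the sequences had been seen: the CCAAT box (CCAAT), the GC box bound by Sp1 (GGGCGG), an ETS factor site (CCGGAAG), the cAMP response element (TGACGTCA) and the peroxisome proliferator response element read by PPAR receptors (AGGTCA, 1 base of any kind, AGGTCA).
Pex7: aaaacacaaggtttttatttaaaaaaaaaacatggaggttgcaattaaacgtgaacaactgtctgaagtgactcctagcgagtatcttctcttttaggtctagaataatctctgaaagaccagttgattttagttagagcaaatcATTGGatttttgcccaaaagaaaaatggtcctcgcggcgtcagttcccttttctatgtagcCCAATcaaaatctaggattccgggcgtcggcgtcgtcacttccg
Pex11a: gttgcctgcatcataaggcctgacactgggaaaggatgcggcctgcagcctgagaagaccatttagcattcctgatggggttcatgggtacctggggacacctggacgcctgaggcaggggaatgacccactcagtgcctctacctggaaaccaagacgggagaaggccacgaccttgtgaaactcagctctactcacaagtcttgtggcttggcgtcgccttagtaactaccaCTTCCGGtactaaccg
Pex13: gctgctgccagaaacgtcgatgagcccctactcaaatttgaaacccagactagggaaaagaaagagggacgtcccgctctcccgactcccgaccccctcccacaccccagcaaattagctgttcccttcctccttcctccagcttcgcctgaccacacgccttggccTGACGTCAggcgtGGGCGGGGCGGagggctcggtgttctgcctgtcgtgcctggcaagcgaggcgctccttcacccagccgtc
Pex14: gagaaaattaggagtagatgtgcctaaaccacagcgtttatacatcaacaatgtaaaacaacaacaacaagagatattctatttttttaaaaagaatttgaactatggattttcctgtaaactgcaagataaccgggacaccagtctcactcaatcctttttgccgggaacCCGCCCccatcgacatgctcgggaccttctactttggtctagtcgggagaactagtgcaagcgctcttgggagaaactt

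The Pex7 window held 2 CCAAT boxes, starting 105 and 44 bases before the start, and 40% of its bases were G or C. The Pex11a window held 1 ETS site at 16 bases. The Pex13 window held 1 cAMP response element at 83 bases and 2 GC boxes at 70 and 65 bases, which overlap each other by 1 base, with 62.8% G or C. The Pex14 window held 1 GC box at 79 bases. Of 32817 RefSeq windows of the same length, 33.8% had a CCAAT box, 32.7% a GC box, 6.9% an ETS site, 1.55% a cAMP response element and 0.0335% the PPAR element. Of the 8 windows found for 6 of the member genes, 3 for Pex5 and 1 each for Pex6, Pex7, Pex11a, Pex13 and Pex14, CCAAT boxes were in 3, GC boxes in 5, ETS sites in 2, the cAMP response element in 1 and the PPAR element in 0. The Pex5 windows chr6:124414864-124415113 and chr6:124415068-124415317 overlap and share GC boxes, and both hold a CCAAT box. The 8 windows are therefore not separate sequences. These matches describe letters in the window and not factor binding, and no motif was shared by the windows of Pex7, Pex11a and Pex13.

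The other peroxins measured were Pex3, Pex11g, Pex16 and Pex26, 4 of 8 listed, each by the brightest probe set on the first chip that held it. Over all 15964 genes taken in this way, 11.3% fell and 9.43% rose in GFP-positive cells. Pex3, the membrane anchor on which Pex19 docks, fell. It read 72.5, 76.2 and 53.5 in GFP-positive cells and 138, 118 and 108 in GFP-negative cells, with no overlap. Its difference of -0.73 on the log2 scale (SE 0.14, adjusted p = 0.0142, limma) passed, but the adjusted p became 0.0532 or 0.0508 when GFP-negative replicate 1 or 2 was left out. Pex26, which tethers the ATPase pair of Pex6 to the membrane, read 191, 109 and 160.3 against 208, 243 and 195 and did not pass, at -0.47 (SE 0.20, adjusted p = 0.139, limma), although its arrays did not overlap. Pex16, which acts with Pex3 in forming the membrane, differed by -0.16 (SE 0.14, adjusted p = 0.472, limma), and Pex11g, a relative of Pex11a, by 0.08 (SE 0.12, adjusted p = 0.678, limma).

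Across 81 measured genes of 96 in 7 lists of peroxisome biology, 17 fell and 3 rose in GFP-positive cells, and 61 did not pass. The 4 other peroxins above are among the 81, and Pex3 is among the 17. Over all genes 11.3% fell and 9.43% rose. Their median log2 difference was -0.13, beside 0.04 over all genes. The lists, like the peroxins, were chosen with earlier results of these data known. Their counts, medians and calls therefore describe the genes and are no test of the lists. Leaving out any 1 GFP-negative array lowered the count of lower genes, to 5 (replicate 1), 5 (replicate 2) or 8 (replicate 3). Such fits hold fewer arrays, and the cause of the drop was not tested. Leaving out a single GFP-positive array left 17 (replicate 1), 9 (replicate 2) or 18 (replicate 3). Of the 20 genes past the threshold, 5 passed in all 6 such fits, namely Gdap1, Vapb, Crot and Trim37 as lower and Pxmp2 as higher. The 3 higher genes became 5 when GFP-positive replicate 3 was dropped, 2 when GFP-negative replicate 1 was dropped and 1 for each of the other 4 arrays. With 1 probe set per gene, no gene rose in 5 of the 7 lists, those other than transporters and beta-oxidation, and 3 of their 57 measured genes were higher at an unadjusted p under 0.05 (limma). With robust trended limma the count was 0. When any probe set of a gene counted, the higher genes of all lists numbered 5 and included Trim37 and Rxra.

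**Figure D3:**
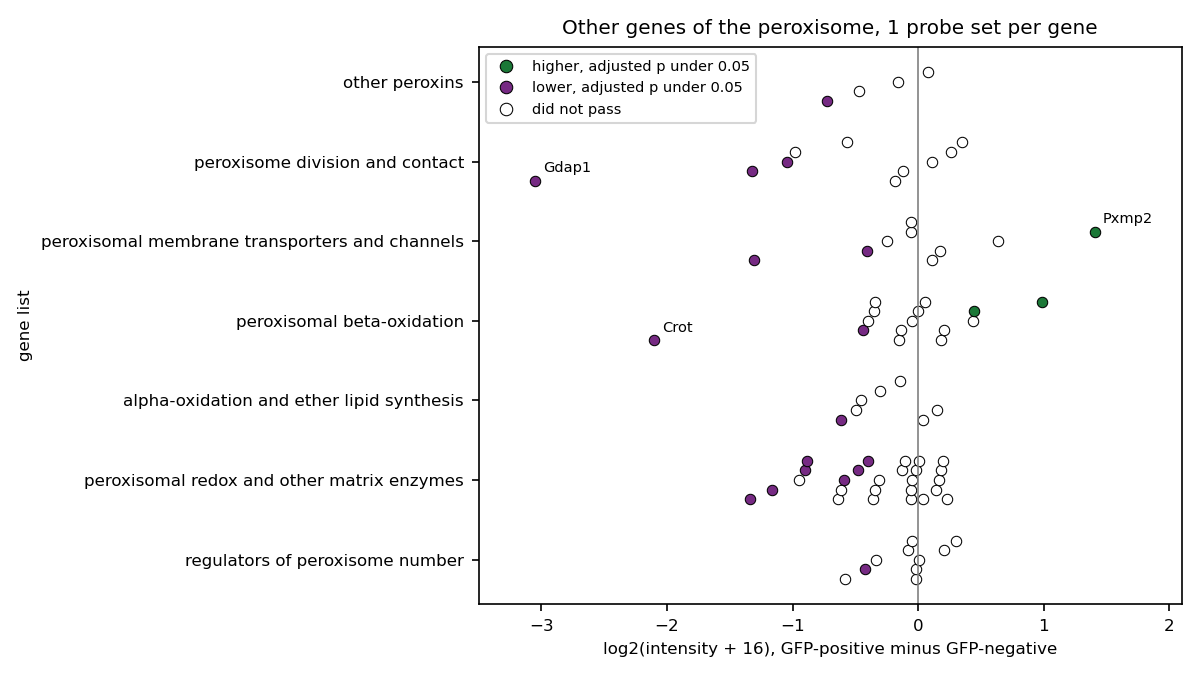
Log2 difference in log2(intensity + 16), GFP-positive minus GFP-negative (horizontal axis), of 81 other peroxisome genes in 7 lists, 1 point per gene, shifted vertically within a list only to keep points apart. Purple points fell (17), green points rose (3) and open points did not pass, and Gdap1 lies farthest to the left at -3.05.

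Of 10 genes for division and contact with other organelles, 3 fell. Gdap1, a membrane protein needed for peroxisome and mitochondrial fission, read 9.06, 18.9 and 10.3 in GFP-positive cells and 180.3, 195 and 299 in GFP-negative cells. That was the widest difference of the lists, at -3.05 (SE 0.22, adjusted p = 0.000493, limma). Vapb, which ties peroxisomes to the endoplasmic reticulum, fell on its chip A probe set from 298 ± 54.6 in GFP-negative to 109 ± 15.9 in GFP-positive cells, at -1.32 (SE 0.16, adjusted p = 0.0029, limma). Its other 3 probe sets did not pass and had higher means in GFP-positive cells. Tmem135 read 385 ± 76.5 in GFP-negative and 184 ± 63.95 in GFP-positive cells, at -1.04 (adjusted p = 0.0397, limma). It passed in 2 of 6 fits with 1 array left out, and missed under quantile normalization (adjusted p = 0.0869, limma) and with an offset of 64 (0.0542). Mff, the receptor for the fission GTPase, did not pass at -0.18 (adjusted p = 0.463, limma). The median of this list was -0.38.

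Membrane transporters and channels moved in both directions, with 1 of 9 higher and 2 lower and a median of -0.05. Pxmp2, a channel of the peroxisomal membrane, rose from 65.0 ± 3.50 in GFP-negative to 202 ± 47.5 in GFP-positive cells, at 1.40 (SE 0.17, adjusted p = 0.0031, limma). Its other probe set, 167381_f_at on chip C, did not pass at 0.53 (adjusted p = 0.0809, limma), though its arrays did not overlap. Abcd3, which carries long-chain and branched acyl groups into the organelle, fell at -1.31 (SE 0.33, adjusted p = 0.0422, limma), and its adjusted p went as high as 0.122 in the 6 fits with 1 array left out, none of which kept the call, and was 0.0641 with an offset of 64. Slc25a17, a carrier of cofactors such as coenzyme A, fell at -0.41 (adjusted p = 0.0240, limma) and passed in 2 of these fits. Pxmp4 did not pass at 0.11 (adjusted p = 0.818, limma).

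Genes of beta-oxidation had 2 higher and 2 lower of 15, with a median of -0.05. Crot, which hands shortened acyl groups to carnitine for export, read 39.8, 29.8 and 20.9 in GFP-positive cells and 329, 141 and 123 in GFP-negative cells, at -2.10 (SE 0.36, adjusted p = 0.00759, limma). Acot8, an acyl-CoA thioesterase, fell at -0.44 (adjusted p = 0.0418, limma) but passed in only 1 of 6 fits with 1 array left out and missed with an offset of 64 (adjusted p = 0.0523, limma). It read above the chip median on 2 of 6 arrays. Its other probe set, 166997_at on chip C, did not pass at 0.02 (adjusted p = 0.924, limma). Eci2, an isomerase for unsaturated chains, rose from 156 ± 32.4 to 325 ± 72.7, at 0.98 (adjusted p = 0.0236, limma), passing in 2 of the fits with 1 array left out. Acox3, an oxidase for branched chains, rose at 0.44 (adjusted p = 0.0203, limma), passing in 1. The second Acox3 probe set, 167058_at on chip C, did not pass at 0.17 (adjusted p = 0.183, limma). Acaa1a, a thiolase that enters by way of Pex7, did not pass, with 554.5 ± 11.4 in GFP-positive and 557 ± 26.1 in GFP-negative cells and a log2 difference of -0.01 (SE 0.07, adjusted p = 0.975, limma).

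Among 7 genes of alpha-oxidation and ether lipid synthesis, 1 fell, and the median was -0.30. Phyh, the hydroxylase that starts phytanic acid breakdown and is imported through Pex7, read 37.8, 33.0 and 36.3 in GFP-positive cells and 78.6, 58.9 and 54.1 in GFP-negative cells. Its difference was -0.62 (SE 0.13, adjusted p = 0.0220, limma) and held in 4 of 6 fits with 1 array left out. Far1, which makes the fatty alcohols for ether lipids, differed by -0.45 (adjusted p = 0.0637, limma).

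Redox and other matrix enzymes, with their quality control factors, had 7 of 26 genes lower and a median of -0.22. Trim37, a ubiquitin ligase that acts on Pex5, fell on its chip A probe set from 257 ± 33.3 in GFP-negative to 92.0 ± 10.2 in GFP-positive cells, at -1.34 (SE 0.12, adjusted p = 0.00113, limma). Its probe sets disagreed, since on chip C 166810_at was also lower (138 ± 24.4 against 222 ± 13.7, adjusted p = 0.0373, limma) while 138969_at was higher (315 ± 115 against 65.3 ± 10.8, adjusted p = 0.00814, limma). Ide, a protease with a peroxisomal targeting signal, fell at -1.17 (adjusted p = 0.0185, limma) on 1 of its 4 probe sets. Lonp2, the protease of the peroxisomal matrix, fell at -0.90 (SE 0.20, adjusted p = 0.0265, limma) and passed in 2 of 6 fits with 1 array left out. The other 4 lower genes were Idh1, Nudt19, Dhrs4 and Xdh. Tysnd1, which clips targeting signals from imported enzymes, read 39.2, 35.2 and 3624 in GFP-positive cells and 439, 540.1 and 275 in GFP-negative cells. Those values are of 104164_at, which did not pass with GFP-positive replicate 3 (-0.95, adjusted p = 0.768, limma) and was lower without it (-2.98, adjusted p = 0.00155, limma). Its other 4 probe sets did not pass, and 107336_i_at and 107337_r_at on chip B had higher means in GFP-positive cells (259.8 against 212 and 819 against 328). GFP-positive replicate 3 was again far above the rest on 107337_r_at, which read 378, 443 and 1636 against 263, 389 and 331.

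Regulators of peroxisome number, which include the PPAR receptors and factors of peroxisome turnover, mostly did not pass, with 1 of 10 lower and a median of -0.03. Marchf5, a membrane ubiquitin ligase, fell at -0.42 (adjusted p = 0.0380, limma), in 3 of 6 fits with 1 array left out and not with robust trended limma (0.109), with an offset of 1 (0.0609) or among probe sets above the chip median (0.0512). Another of its probe sets, 114476_at on chip B, was lower too (41.8 ± 10.1 against 110.4 ± 18.2, adjusted p = 0.00375, limma). The remaining probe sets of Marchf5 on chip B did not pass and were below the chip median on every array. Of these, 107836_at was higher in GFP-positive cells without overlap, at 0.23 (adjusted p = 0.226, limma), and 165014_r_at differed by -0.12 (adjusted p = 0.381, limma). In the same list Rxra, the partner receptor of the PPARs, did not pass on its listed probe set (0.21, adjusted p = 0.322, limma) but was higher on 112678_at of chip B (140.3 ± 31.8 against 76.4 ± 18.8, adjusted p = 0.0387, limma). These further probe sets of Marchf5 and Rxra were named after their values were seen. Nbr1, an autophagy receptor that can bind peroxisomes, did not pass at -0.59 (adjusted p = 0.114, limma), with no overlap between the populations.

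**Figure D4:**
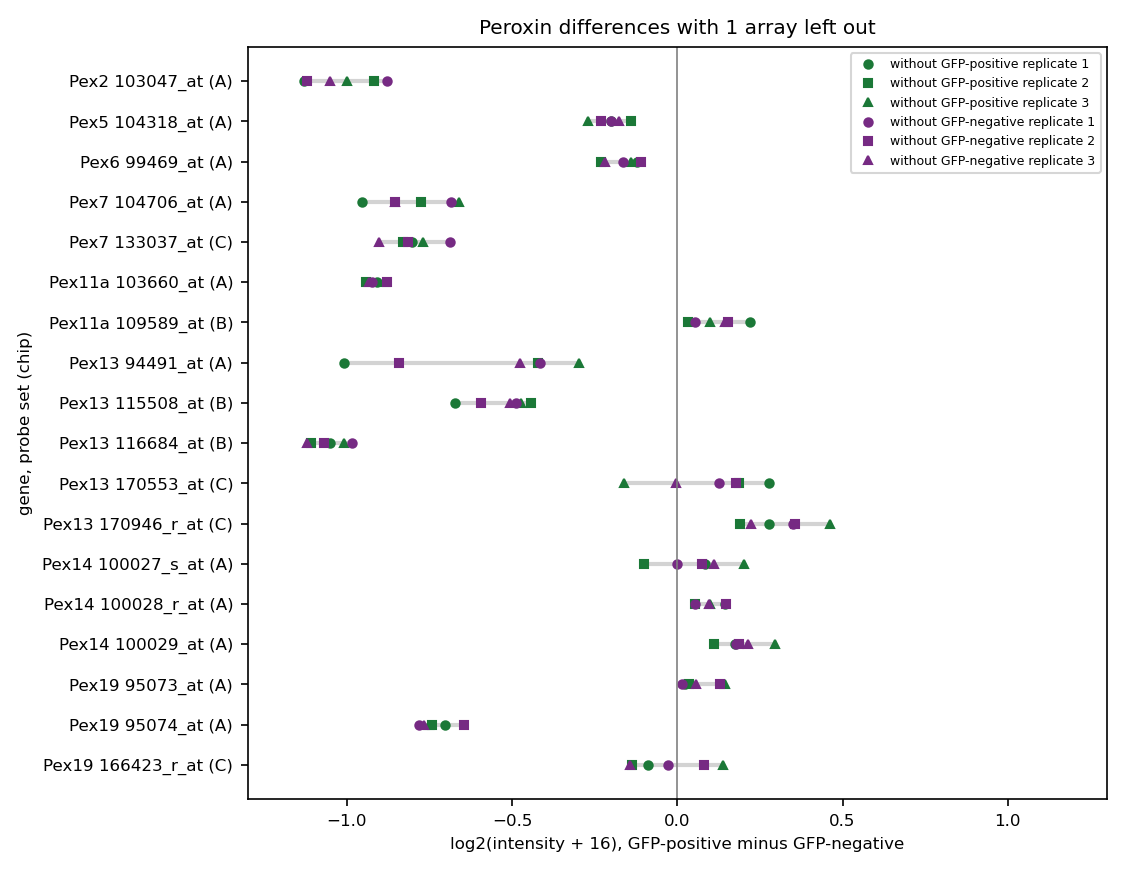
Log2 difference of each peroxin probe set (horizontal axis, log2(intensity + 16), GFP-positive minus GFP-negative) with 1 array left out in turn, green for a GFP-positive and purple for a GFP-negative array and a symbol for its replicate number. Pex2, Pex7, Pex11a 103660_at and Pex19 95074_at stay below 0 throughout, while Pex13 170553_at, Pex14 100027_s_at and Pex19 166423_r_at cross it.

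The likeness of other genes was described for Pex13 116684_at, which had the largest difference among probe sets without overlap at an offset of 16, though not at 64. Over the 6 arrays of chip B, the 3 probe sets with the highest Pearson correlation among 10580 with 1 gene symbol were those of Map2 (r = 0.999), a microtubule protein of neurons, Celf2 (r = 0.999), an RNA-binding protein, and Zfp536 (r = 0.998), a zinc finger protein. Map2 averaged 23.5 in GFP-positive and 282 in GFP-negative cells, and Celf2 34.3 and 613. The 6 arrays fall into 2 populations, and 678 probe sets of the chip had r above 0.95 with this one.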

How the data were processed

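The deposited tables give 1 intensity per probe set and array, on a linear scale, per the file headers and the values. The authors' summary and normalization of the intensity values are not given in the sources used here. Detection calls were not used. Gene names came from GEO's platform annotation, with 10833 of 12422 on chip A, 10581 of 12411 on chip B and 7717 of 11868 on chip C holding 1 gene symbol. Each chip was fitted alone with limma 3.58.1 (R 4.3.3, lmFit and eBayes) on log2(intensity + 16), GFP-positive minus GFP-negative, two-sided, and p-values were adjusted by Benjamini-Hochberg per chip and called at 0.05. The number of arrays, 3 per population, limits the precision. Lists used 1 probe set per gene, the brightest one on chip A, else on B, else on C. Text names every peroxin probe set, every other measured peroxin, up to 3 higher and 3 lower genes per list by size of difference, and the brightest gene that did not pass. The peroxins and the lists were chosen with earlier results of these data known. Alternatives were another normalization or offset, a filter on dim probe sets, robust trended limma, a replicate block, stricter thresholds, other probe set rules and leaving out each array. Figures were drawn with matplotlib 3.10.9.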

Additional observations from a re-analysis of the deposited data

How the results depend on the processing

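Of 7 lower peroxin probe sets, 4 passed at an adjusted p under 0.01 and 2 with at least a 2-fold difference on the log2(intensity + 16) scale. That scale is stricter than a ratio of mean intensities. Pex7 104706_at and Pex11a 103660_at missed this setting, though their ratios were 2.055 and 2.193. Leaving out 1 array gave 4 to 7 lower peroxin probe sets, with 4 without GFP-negative replicate 2. The count of higher peroxin probe sets ranged from 0 to 2 with 1 array left out and was 2 without GFP-positive replicate 3. Of the other peroxisome genes, the 3 higher became 1 at an adjusted p under 0.01 and 1 with at least 2-fold on the same scale. They became 5 when any probe set of a gene counted, and 1 to 5 with 1 array left out. The 17 lower became 4 at an adjusted p under 0.01, 7 with at least 2-fold on that scale and 5 to 18 with 1 array left out. The cause was not tested, though fits without an array hold fewer samples. None of the other alternatives moved these 4 counts by over 1.5 times, and no peroxin probe set or gene named by the rule that passed the threshold changed sign under any of them. Other genes and probe sets past the threshold were not followed one by one under all alternatives. The labels do not say whether the replicate numbers pair the samples. Deviations of same-numbered arrays (replicates 1, 2 and 3) correlated at 0.292, -0.268 and -0.14 on chip A. They correlated at 0.255, -0.305 and -0.135 on chip B and at 0.175, -0.368 and -0.295 on chip C. So few arrays cannot decide whether samples were paired. A replicate block gave 7 lower and 0 higher peroxin probe sets and 16 lower and 2 higher list genes. Under that block Slc25a17 (adjusted p = 0.0881, limma), Acox3 (0.0845) and Acot8 (0.0568) did not pass. Over all probe sets, GFP-positive replicate 3 mattered most on chip C, where leaving it out took the higher from 403 to 1559 and the lower from 698 to 1417, while the block took the higher to 187. Values below the chip median, as for Pex13 on chip B, limit what those probe sets can show.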

Other observations

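Pex5l, a relative of Pex5 that is expressed in brain and is no peroxin of the described set, was looked up after the values were seen. Its probe set 109502_at on chip B read 65.8, 88.9 and 56.2 in GFP-positive cells and 175, 80.5 and 157 in GFP-negative cells, and GFP-negative replicate 2 lay among the GFP-positive arrays. The log2 difference of -0.79 (SE 0.28, adjusted p = 0.0954, limma) did not pass. On 106897_at of the same chip, below the chip median on every array, it was 0.12 (adjusted p = 0.63, limma).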
